A study of Rattus norvegicus with 8 samples.

Results

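Neuregulins are growth factors of the EGF family, and the ErbB receptors are the tyrosine kinases that they activate. The 8 gene names examined in the rat striatum were Nrg1, Nrg2, Nrg3 and Nrg4 for the neuregulins and Egfr, Erbb2, Erbb3 and Erbb4 for the receptors. They were chosen by name, as a ligand and receptor family, with earlier METH and saline values of these same rats known. The differences of these genes between METH and saline rats are therefore given as a description and not as a test. Of the 17337 genes counted, 7 were members of the family, and Nrg3 was not analysed here. After removal of genes with low counts, 12014 genes were tested, among them 6 members, and Nrg4 was below that filter.

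The striatum of 8 WT male Sprague-Dawley rats was sequenced after self-administration of methamphetamine (METH) or saline, to compare gene expression between 4 METH and 4 saline rats. The METH rats pressed a lever for intravenous METH at 0.05 mg/kg per infusion in 2 h sessions over 16 days, and each lever press was rewarded outside a short timeout. The saline rats received saline in the same sessions, and all rats in both groups had been trained with food and had undergone catheter surgery. The 4 rats of each group were those with stable lever pressing at the end, out of 24 rats started on METH and 8 on saline, so that they stand for stable responders. Their age was not given in the sources used here.

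Neuregulins are made mostly as membrane-bound precursors, which proteases cut to release or expose the EGF-like domain that binds Erbb3 and Erbb4. ErbB receptors act in pairs. Erbb3 binds neuregulins but has little kinase activity of its own, and Erbb2 binds no known neuregulin but is a favoured partner of the others, so that the pair forms a working receptor. In the brain, neuregulin signalling is known for its part in interneuron circuits, where Erbb4 is prominent, and in glial cells of the oligodendrocyte lineage.

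The neuregulin that the study lists among predicted targets of miR-183-5p is Nrg1. The mature sequence of this miRNA is shown because its seed, the part that pairs with a target, is what such predictions rest on. It is taken from RefSeq, where it lies on the minus strand of chromosome 4 in the GRCr8 assembly (chr4:59756106-59756127). The capitals mark the seed, bases 2 to 8 from the 5′ end.
rno-miR-183-5p: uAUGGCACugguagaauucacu
Mature miRNAs carry no poly(A) tail, and the level of miR-183-5p was not measured in these mRNA libraries. No target site in Nrg1 was examined.

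Values are raw read counts per gene, made by the authors, and are given as CPM, which is counts scaled to a common library size after correction by the TMM method of edgeR. Total counts lay between 18135939 and 21211920 per rat, so that 3 counts, taken as the smallest detectable number, were worth 0.142 to 0.169 CPM. Every pair of rats within a group differed by more than counting noise, with a chi-square per degree of freedom of 10.4 to 28.6. A gene was called where the FDR of the edgeR quasi-likelihood test over all genes was below 0.05 and its mean log2 CPM was above 1. The projection neuron gene Ppp1r1b (DARPP-32), a defining gene of the striatum, averaged 7169 CPM in saline rats. The counts of a gene pool all of its transcripts, and counts of different genes were not compared as levels because they are not divided by transcript length.

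None of the 6 tested members was called by the edgeR quasi-likelihood test, in a comparison in which 62 genes, or 0.516% of those tested, were called. At an unadjusted p under 0.05 stood 3 members (Erbb3, Nrg1 and Nrg2), beside 11.1% of all genes tested. Called and lower by the quasi-likelihood test were 8 genes, or 0.0666% of all tested. The DESeq2 and likelihood ratio tests each called 1 member, Erbb3, which was lower. These tests called more genes in all, with 50 called lower in DESeq2, or 0.451% of the 11077 genes it gave an adjusted p, and 39, or 0.325%, in the likelihood ratio test. In 1 member, Erbb3, every METH rat lay below every saline rat, which was the case in 2.65% of all genes tested. The share of genes with every METH rat above every saline rat was not counted. Nothing is read from these counts about the family, since its choice used the same contrast. The log2 fold changes of METH over saline had a median of -0.12 over the 6 members and of -0.01 over all genes tested. The 2 tested neuregulins and Erbb2 had values above 0, and the other 3 receptors had values below 0.

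**Figure D1:**
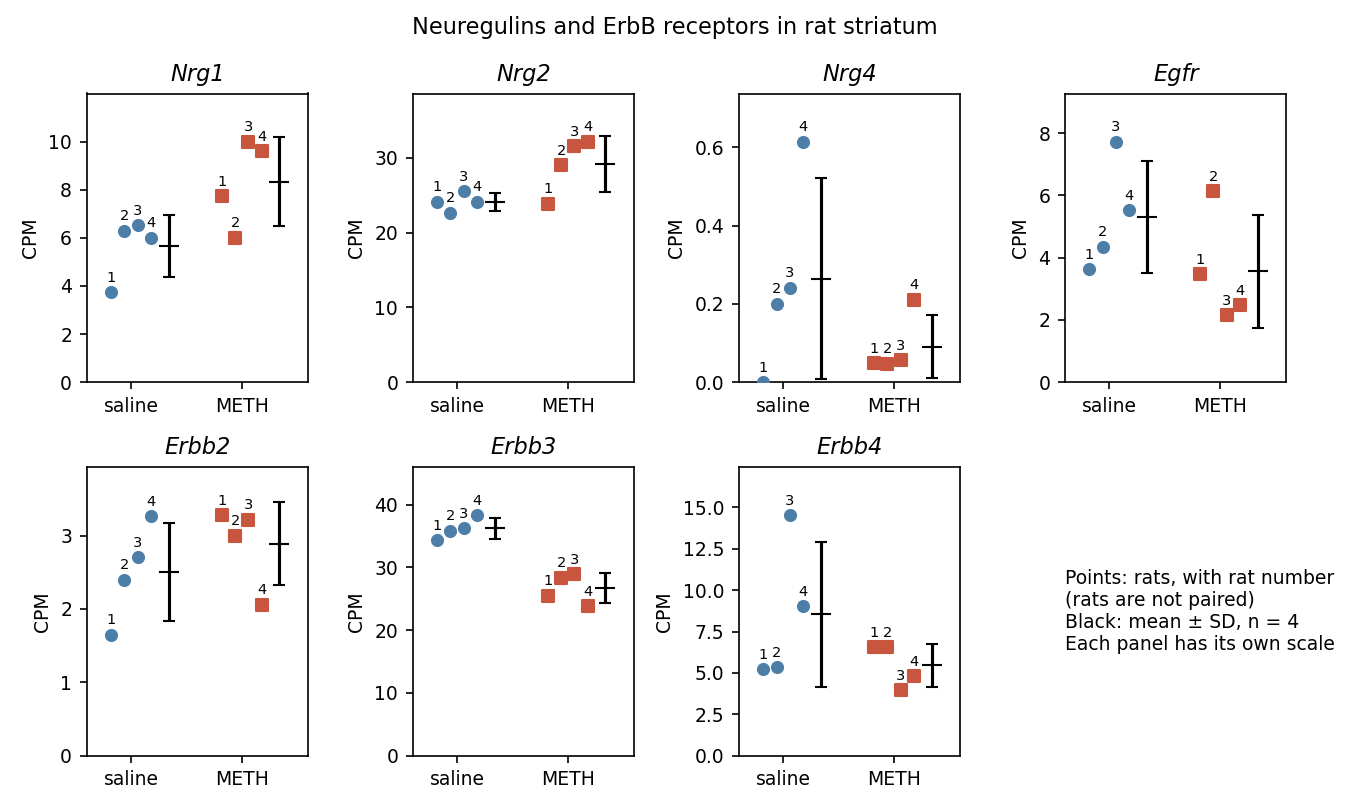
CPM of each family member with a row, with 1 point per rat, for the 4 saline and the 4 METH rats, and bars for the group mean and SD. Each panel has its own axis from 0. The Erbb3 panel is the one in which the groups separate, with saline rats at 34.4 to 38.3 CPM and METH rats at 23.8 to 28.9 CPM.

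Among the receptors, Erbb3, the neuregulin receptor with the weak kinase, stood farthest from equal levels relative to its error. In saline rats 1 to 4 it was at 34.4, 35.8, 36.3 and 38.3 CPM. In METH rats 1 to 4 it was at 25.5, 28.4, 28.9 and 23.8 CPM. The groups did not overlap, and the gap from the highest METH rat to the lowest saline rat was wider than the whole saline range. The saline mean was 36.2 ± 1.64 CPM (SD, n = 4) and the METH mean 26.7 ± 2.41 CPM (SD, n = 4), a ratio of 0.736. The log2 fold change was -0.44 (standard error 0.09, 95% interval -0.64 to -0.24). Its p of 0.000379 in the edgeR quasi-likelihood test was at rank 72 of all genes, which gave an FDR of 0.0632, short of the threshold. The spread of Erbb3 between saline rats was small, with a coefficient of variation of 4.52%, where counting error alone gives 3.71%. In bulk striatum, fewer cells of a type and less RNA per cell cannot be told apart.

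The call of Erbb3 depended on the test and on the scaling, while its value hardly moved. Its log2 fold change lay between -0.48 and -0.39 over 18 alternative fits. In 4 of them it was called, with an FDR of 0.00253 in DESeq2, 0.00562 in the edgeR likelihood ratio test, 0.04996 with upper-quartile scaling and 0.0365 with total-count scaling. Called lower under these scalings were 0.0749% and 0.0916% of all genes. With any 1 rat left out it was not called, at an FDR of 0.0691 to 0.203 in the edgeR quasi-likelihood test.

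Erbb4, the receptor that is both a neuregulin receptor and an active kinase, varied more between saline rats than the other receptors. They were at 5.21, 5.35, 14.5 and 9.03 CPM, and the METH rats were at 6.56, 6.57, 3.95 and 4.80 CPM. Saline rat 3 was the highest of all 8, and the METH rats overlapped with saline rats 1 and 2. Group means were 8.53 ± 4.38 CPM (SD, n = 4) and 5.47 ± 1.31 CPM (SD, n = 4), and the saline coefficient of variation was 51.3%, where counting error gives 7.59%. The log2 fold change was -0.64 (standard error 0.31, 95% interval -1.30 to 0.02, edgeR FDR 0.462). Without saline rat 3 it was -0.26.

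Egfr, the receptor for EGF and TGF-alpha rather than for neuregulins, had a similar pattern across rats. Saline rats were at 3.62, 4.35, 7.73 and 5.53 CPM, and METH rats at 3.48, 6.14, 2.15 and 2.48 CPM. The highest rat was again saline rat 3, while METH rat 2 lay above 3 of the 4 saline rats. The means of 5.31 ± 1.79 CPM (SD, n = 4) and 3.56 ± 1.81 CPM (SD, n = 4) gave a log2 fold change of -0.57 (standard error 0.33, 95% interval -1.29 to 0.15, edgeR FDR 0.531). Without METH rat 2 it was -0.97, and without saline rat 3 it was -0.33.

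Erbb2, the partner receptor without a neuregulin of its own, was counted with few reads. Saline rats were at 1.65, 2.40, 2.705 and 3.26 CPM, from 30, 48, 56 and 69 reads. METH rats were at 3.28, 3.00, 3.22 and 2.06 CPM, from 67, 63, 57 and 39 reads. The groups overlapped, with METH rat 4 below 3 saline rats. Means were 2.50 ± 0.673 CPM (SD, n = 4) and 2.89 ± 0.568 CPM (SD, n = 4), and the log2 fold change was 0.20 (standard error 0.29, 95% interval -0.41 to 0.82, edgeR FDR 0.814). At this depth the interval spans values on both sides of 0. The value was 0.05 without saline rat 1, 0.36 without saline rat 4 and 0.33 without METH rat 4.

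The neuregulins are the ligands of Erbb3 and Erbb4. Nrg1, the ligand with the broadest known set of isoforms, was at 3.73, 6.30, 6.52 and 6.001 CPM in saline rats and at 7.73, 5.998, 9.997 and 9.59 CPM in METH rats. All METH rats but rat 2 lay above every saline rat, and saline rat 1 stood apart below the other saline rats. Means were 5.64 ± 1.29 CPM (SD, n = 4) and 8.33 ± 1.84 CPM (SD, n = 4), with a log2 fold change of 0.56 (standard error 0.22, 95% interval 0.08 to 1.03, edgeR FDR 0.379). Over the alternative fits it lay between 0.41 and 0.69, and Nrg1 was called in none of them.

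Nrg2, a related ligand that is known mainly from neurons, was at 24.2, 22.6, 25.6 and 24.1 CPM in saline rats. In METH rats it was at 23.8, 29.0, 31.5 and 32.2 CPM. Here METH rat 1 was level with the saline rats, and the other METH rats lay above all of them. Means were 24.1 ± 1.19 CPM (SD, n = 4) and 29.1 ± 3.78 CPM (SD, n = 4), with a log2 fold change of 0.27 (standard error 0.11, 95% interval 0.04 to 0.51, edgeR FDR 0.385). Without METH rat 1 the value was 0.36 with an edgeR FDR of 0.154.

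Nrg4, a ligand known mainly as a factor released by fat tissue, had too few reads for a test. It had 0, 4, 5 and 13 reads in saline rats 1 to 4, and 1, 1, 1 and 4 reads in METH rats 1 to 4. Saline rat 4 held 13 of the 22 saline reads, the METH rats had 7 reads in all and the groups overlapped, so that no fold is given.

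**Figure D2:**
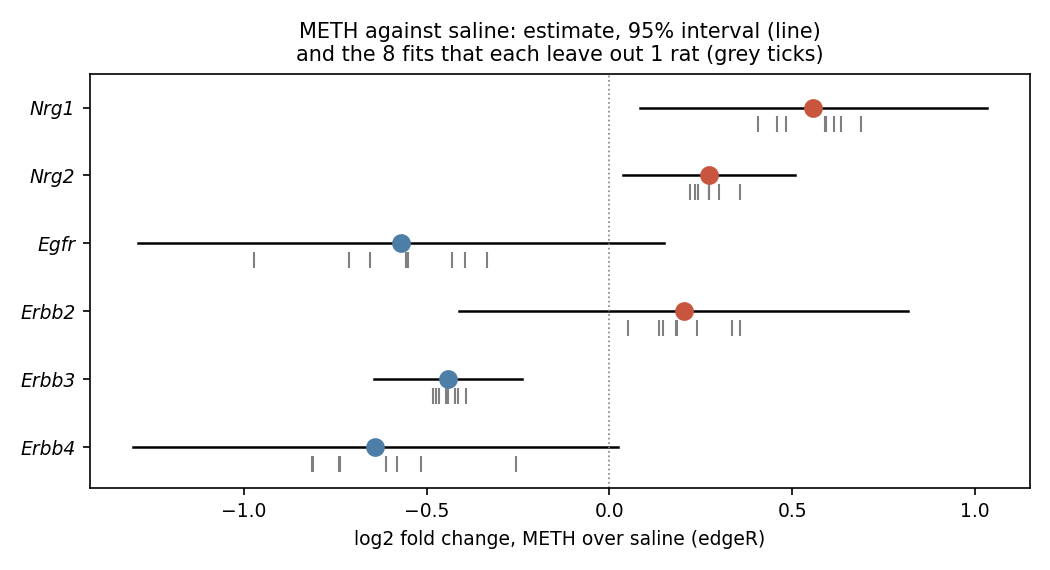
Log2 fold change of METH over saline for the 6 tested members, on the horizontal axis, with the 95% interval of the edgeR quasi-likelihood fit. Erbb3 at -0.44 has the narrowest interval, Nrg1 and Nrg2 lie above 0, and the intervals of Erbb4, Egfr and Erbb2 include 0.

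Since the receptors act in pairs, each receptor's part of the reads on all 4 receptors was also taken within each rat. Such a share does not depend on library scaling, but it is not divided by transcript length and can be compared between rats only. The share of Erbb3 was 69.7% ± 7.86 (SD, n = 4) in saline rats and 69.4% ± 5.29 (SD, n = 4) in METH rats, a difference smaller than the spread between rats. The mean CPM of Erbb4 and of Egfr was below that of saline rats as well. The sign of the difference in Erbb3 share changed when any of saline rats 1 and 2 or METH rats 1 and 2 was left out, with values up to 1.97 percentage points. The shares of Egfr (9.90% ± 1.95 and 8.99% ± 3.56, SD, n = 4) and Erbb4 (15.7% ± 5.83 and 14.2% ± 2.75, SD, n = 4) also differed by less than their spread.

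The share of Erbb2 was the receptor share that separated the groups, although its own CPM overlapped (log2 fold change 0.20, standard error 0.29). Most of the reads it is divided by were on Erbb3, at 69.7% in saline and 69.4% in METH rats. The share is therefore not separate from the lower Erbb3 counts of METH rats. It ran from 3.67% to 5.81% in saline rats and from 6.20% to 8.45% in METH rats, with means of 4.73% ± 0.905 (SD, n = 4) and 7.47% ± 1.14 (SD, n = 4). The nearest rats had 95% exact binomial intervals that overlap, from 4.55% to 7.29% in saline rat 4 and from 4.45% to 8.38% in METH rat 4, and these cover counting error only. For every 100 reads on Erbb3, saline rats 1 to 4 had 4.79, 6.69, 7.46 and 8.51 reads on Erbb2, and METH rats 1 to 4 had 12.9, 10.6, 11.1 and 8.63. These ratios did not overlap either, though saline rat 4 and METH rat 4 were nearly level. This ratio was chosen after the values were seen, it follows from the same contrast, and it was not tested.

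**Figure D3:**
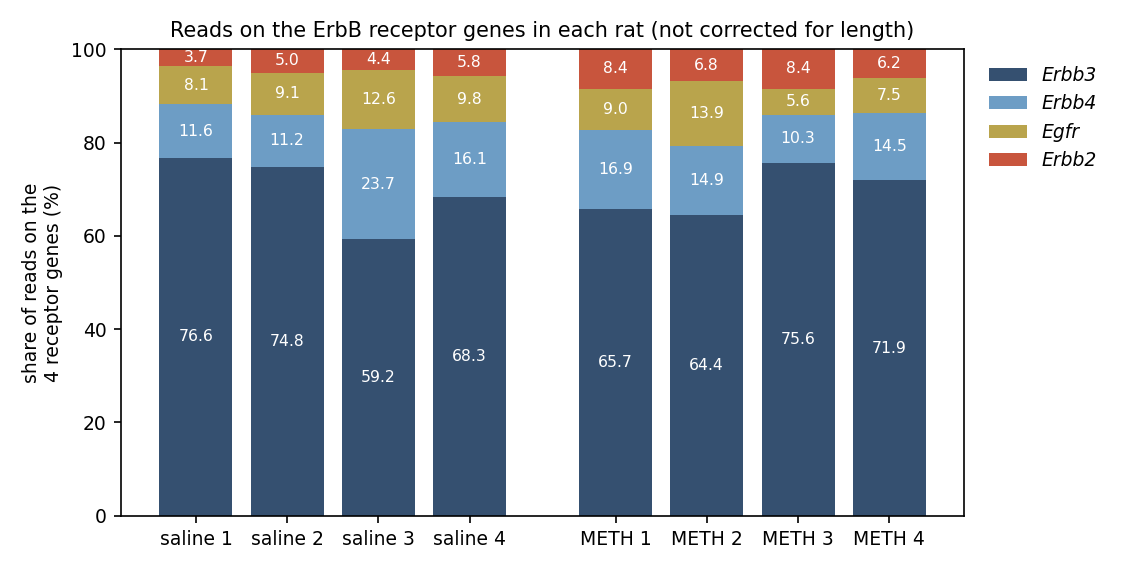
Share of each receptor in the reads of the 4 ErbB receptors, in percent, for each of the 8 rats, with counts not divided by transcript length. Erbb2 takes 3.67% to 5.81% in saline rats and 6.20% to 8.45% in METH rats, while the shares of Erbb3, Erbb4 and Egfr overlap between the groups.

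Among the reads on the neuregulins with a row, Nrg1 held 18.7% ± 3.63 (SD, n = 4) in saline rats and 22.1% ± 3.41 (SD, n = 4) in METH rats. Nrg2 held most of the rest, with 80.5% ± 4.14 and 77.7% ± 3.45 (SD, n = 4), and Nrg4 held 0.858% ± 0.833 and 0.232% ± 0.180 (SD, n = 4). For each of these shares the METH rats overlapped with the saline rats.

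Markers of the oligodendrocyte lineage, in which Erbb3 is known to be expressed, were set beside it. Of 12 oligodendrocyte genes tested, 10 were lower and 2 higher in METH rats, with a median log2 fold change of -0.11 and none called by the edgeR quasi-likelihood test (2 at an unadjusted p under 0.05). Their summed level ran from 14260 to 20300 CPM in saline rats and from 13287 to 19693 CPM in METH rats, so that the groups overlapped almost fully. Farthest from 0 was Opalin, a membrane protein of mature oligodendrocytes, at 150, 187, 145 and 149 CPM in saline rats and at 122, 92.9, 123 and 101 CPM in METH rats. Like Erbb3 it separated the groups, with a log2 fold change of -0.52 (standard error 0.11) and an edgeR FDR of 0.0632. All 6 tested genes of oligodendrocyte precursors (OPC) were lower, with a median of -0.18. None was called by the same test, and 3 were at an unadjusted p under 0.05. Of all genes tested, 11.1% were at such a p. Farthest from 0 among them was Gpr17, a receptor of differentiating precursors, at -0.47 (standard error 0.15, edgeR FDR 0.265), and the summed level of the 7 OPC genes with a row was 181 to 234 CPM in saline rats and 165 to 190 CPM in METH rats.

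Taken relative to these lists, the groups of Erbb3 overlapped, though part of the METH rats stayed below every saline rat. These were METH rats 1 and 3 for the oligodendrocyte list and METH rats 1 and 4 for the OPC list. The log2 CPM of Erbb3 minus the mean log2 CPM of the oligodendrocyte list was -3.59, -3.89, -3.55 and -3.73 in saline rats and -4.21, -3.71, -4.07 and -3.89 in METH rats. Minus the mean of the OPC list it was 0.63, 0.31, 0.55 and 0.61 in saline rats and 0.12, 0.47, 0.41 and 0.08 in METH rats. In both cases METH rat 2 was within the range of the saline rats and saline rat 2 was within that of the METH rats. The part of the lineage's level in the Erbb3 difference was not tested.

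**Figure D4:**
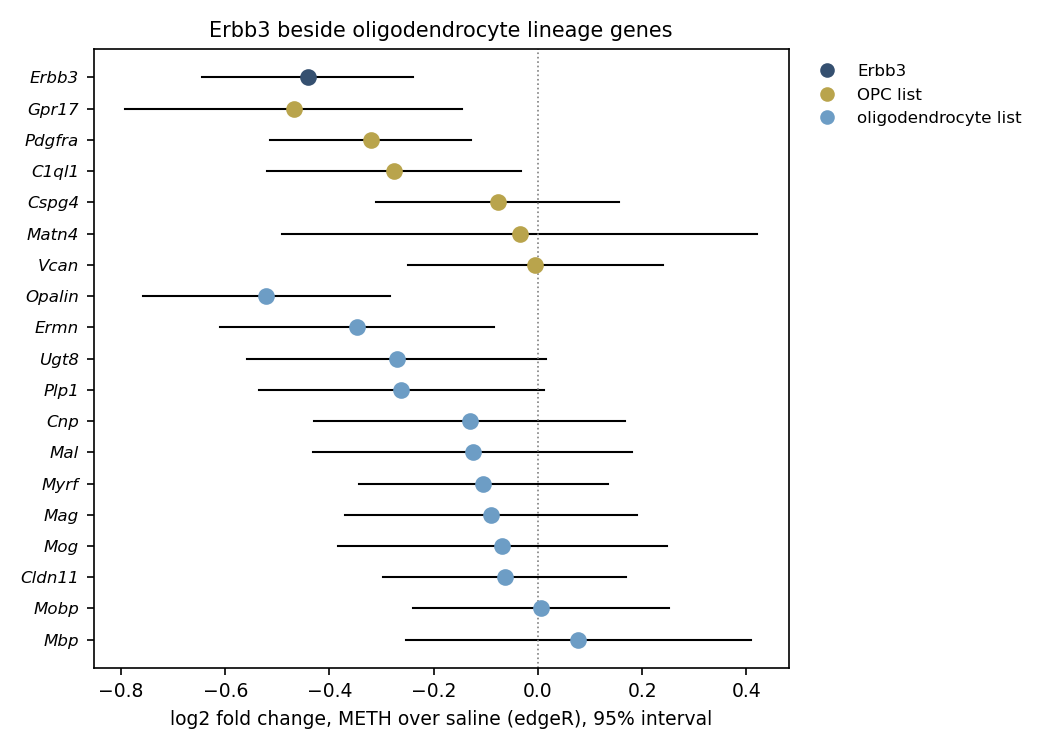
Log2 fold change of METH over saline for Erbb3, the 6 tested OPC genes and the 12 oligodendrocyte genes, 1 row per gene. Lines give the 95% interval of the edgeR quasi-likelihood fit. Erbb3 is at -0.44, the OPC genes run from -0.47 to -0.005 and the oligodendrocyte genes from -0.52 to 0.08.

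Lists of other cell types gave the following values of the same contrast. The projection neuron list (12 genes tested) had a median log2 fold change of 0.10 with Ppp1r1b farthest from 0 at 0.25, and the parvalbumin interneuron list (8 tested), a class that is known to carry Erbb4, had 0.06 with Kcnip2 at 0.64. The astrocyte list (10 tested) had a median of 0.06 with Gjb6 at 0.44, and the cholinergic interneuron list (8 tested) had -0.12 with Zic4 at -0.86. The microglia list (10 tested) had a median of -0.13 and held the only called gene of these lists, Cx3cr1, a microglial chemokine receptor, which fell by 0.73 on the log2 scale (edgeR FDR 0.0408). The endothelial list (7 tested) had -0.20 with Slco1a2 at -0.45. Tissue from outside the striatum was marked by 3 tested choroid plexus genes, all higher, with a median of 0.78 and Clic6 at 0.79. All 8 listed choroid plexus genes, those below the filter included, summed to 4.67 to 6.09 CPM in saline and 6.71 to 9.94 CPM in METH rats, and Otx2 was at 0 in all rats. Of 3 tested cortical pyramidal genes, with a median of 0.08, Slc17a7 was at -1.54 with a standard error of 0.86. That value rests on saline rat 1, at 65.8 CPM beside 3.12 to 3.67 CPM in the other saline rats, and without this rat it was 0.96 (standard error 0.38, edgeR FDR 0.383). Fezf2 was at 0.08, and Nrgn was at 0.36 with every METH rat above every saline rat (edgeR FDR 0.263). The part of these markers in the members' values was not tested.

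Whether members followed a cell type within the groups was examined after the mean of each group had been removed, which takes out the contrast used to choose them. Over 36 relations between 6 members and 6 marker lists across 8 rats, none had an adjusted p under 0.05 in the exact permutation test (two-sided, 576 permutations, smallest possible p 0.00174). The lowest adjusted p was 0.594. At an unadjusted p under 0.05 for Pearson's r were 2 of them. Erbb3 with the projection neuron list had r = 0.74 and rho = 0.62 (exact permutation p = 0.0260 and 0.0347, adjusted p = 0.594 and 0.556), and r = 0.82 without the 2 rats farthest in list level. Nrg2 with the astrocyte list had r = -0.85 and rho = -0.62 (exact permutation p = 0.033 and 0.151, adjusted p = 0.594 and 0.556), and r was -0.21 without 2 rats, so that this relation rests on those rats. By rank alone, Nrg2 with the parvalbumin interneuron list had rho = -0.71 (exact permutation p = 0.0347, adjusted p = 0.556), beside r = -0.69 (exact permutation p = 0.0521, adjusted p = 0.625). Erbb3 with the oligodendrocyte list had r = 0.44 (exact permutation p = 0.340), and -0.10 without 2 rats.

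The members also varied among themselves. With group means removed, the highest Pearson r over the 8 rats were 0.82 (Egfr and Erbb4), 0.73 (Erbb2 and Erbb3) and 0.52 (Erbb2 and Erbb4). All other pairs lay between -0.29 (Nrg2 and Erbb2) and 0.46 (Egfr and Erbb2), with Erbb3 and Erbb4 at 0.15. These values are a description of rats that share library and depth. Egfr and Erbb4 also had r = 0.78 and 0.77 with the first principal component of all genes, which held 25.4% of the variance within groups and set METH rat 3 at one end and saline rat 3 at the other. A correlation with this component at least as high as that of Erbb4 was found in 1119 genes, or 9.31% of those tested. The other 4 tested members had correlations between -0.28 and 0.03 with it. The component was chosen after the data were seen.

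For each member, the genes most like it across the 8 rats were ranked by Pearson r of log2 CPM with group means removed, over 10975 genes. The 3 most like Erbb3 were Adora2a (0.979), Kdm8 (0.978) and Klhl8 (0.956), and those most like Erbb4 were Brd1 (0.989), Ube2j1 (0.985) and Ctnnb1 (0.984). For Egfr they were Zbtb44 (0.989), Slx4ip (0.973) and Lnpep (0.972), and for Erbb2 they were Lrrn1 (0.970), Rqcd1 (0.967) and Marveld1 (0.961). For Nrg1 they were Smoc1 (0.979), Xrcc6 (0.978) and Synm (0.967), and for Nrg2 they were Cacna1d (0.976), Top3b (0.972) and Dpf1 (0.970). As the highest of many genes over few rats, these values are a likeness only.

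The pathway around the family was described by 5 lists that hold 120 genes, of which 106 were tested. None was called by the edgeR quasi-likelihood test, and the median log2 fold change was -0.03. At an unadjusted p under 0.05 were 14 (9 higher and 5 lower), beside 11.1% of all genes tested. DESeq2 called 3 of them (Dusp6, Spry2 and Spry4) and the edgeR likelihood ratio test called 4 (the same with Dusp1), all higher in METH rats. Over all genes these tests called 1.72% and 1.42%.

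These 4 genes belong to the inhibitors and turnover list, in which 14 of 23 tested genes were higher and 9 lower, with a median of 0.04. At an unadjusted p under 0.05 stood 5 higher and 2 lower genes, beside 11.1% of all genes tested. Spry2, a Sprouty inhibitor of receptor kinase signalling, was at 92.6, 80.8, 73.9 and 88.2 CPM in saline rats and at 118, 103, 101 and 110 CPM in METH rats, without overlap. Its log2 fold change was 0.36 (standard error 0.09, edgeR FDR 0.117). Dusp6, the phosphatase that turns off ERK, was at 20.9, 14.2, 13.9 and 17.9 CPM in saline rats and at 29.5, 20.1, 25.4 and 27.1 CPM in METH rats, where METH rat 2 lay just below saline rat 1. Its log2 fold change was 0.61 (standard error 0.15, edgeR FDR 0.132). The related Spry4 was at 0.67 (edgeR FDR 0.165) and Dusp1, a phosphatase of the MAP kinases, at 0.88 (edgeR FDR 0.183), which passed the quasi-likelihood test when saline rat 1 was left out. These genes respond to many growth factor receptors and to neuronal activity, and ErbB signalling itself was not measured.

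Among the proteases that cut neuregulins and their kin, 8 of 16 tested genes were higher and 8 lower, with a median of -0.02. Furin, a convertase that matures other proteases and growth factors, separated the groups with METH rats higher (65.8 ± 6.07 and 81.4 ± 6.85 CPM, SD, n = 4) at a log2 fold change of 0.31 (standard error 0.09, edgeR FDR 0.221). Psenen, a subunit of gamma-secretase, also separated them, at 0.19 (edgeR FDR 0.391). Neither passed the test, and the share of all genes separated in this direction was not counted.

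The adaptors and effectors, which carry the signal from the receptors to PI3 kinase and the MAP kinases, had 15 genes higher and 29 lower of 44 tested, with a median of -0.04. Pik3r1, the regulatory subunit of PI3 kinase for which Erbb3 has many docking sites, had a saline mean of 55.3 ± 5.12 CPM (SD, n = 4) and a METH mean of 44.3 ± 4.29 CPM (SD, n = 4), and the groups did not overlap. Its log2 fold change was -0.32 (standard error 0.10, edgeR FDR 0.232), and the adaptor Nck2 was at 0.25 (edgeR FDR 0.296).

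Other ligands of the EGF family had 2 genes higher and 5 lower of 7 tested, with a median of -0.08. Cspg5 (neuroglycan C), a brain proteoglycan with an EGF-like domain that is known to bind Erbb3, averaged 252 ± 16.7 CPM (SD, n = 4) in the saline group and 211 ± 36.3 CPM (SD, n = 4) in the METH group. Every METH rat lay below every saline rat, with METH rat 3 lowest at 157 CPM, and the log2 fold change was -0.25 (standard error 0.11, edgeR FDR 0.430). Tgfa, a ligand of Egfr, was at -0.15 (edgeR FDR 0.488), and Ereg was at 0 in all rats. In the list of scaffolds and partners, 10 genes were higher and 6 lower of 16 tested, with a median of 0.07, Itgb4 at 0.46 (edgeR FDR 0.441) and Dlg3 at -0.21 (edgeR FDR 0.474).

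**Figure D5:**
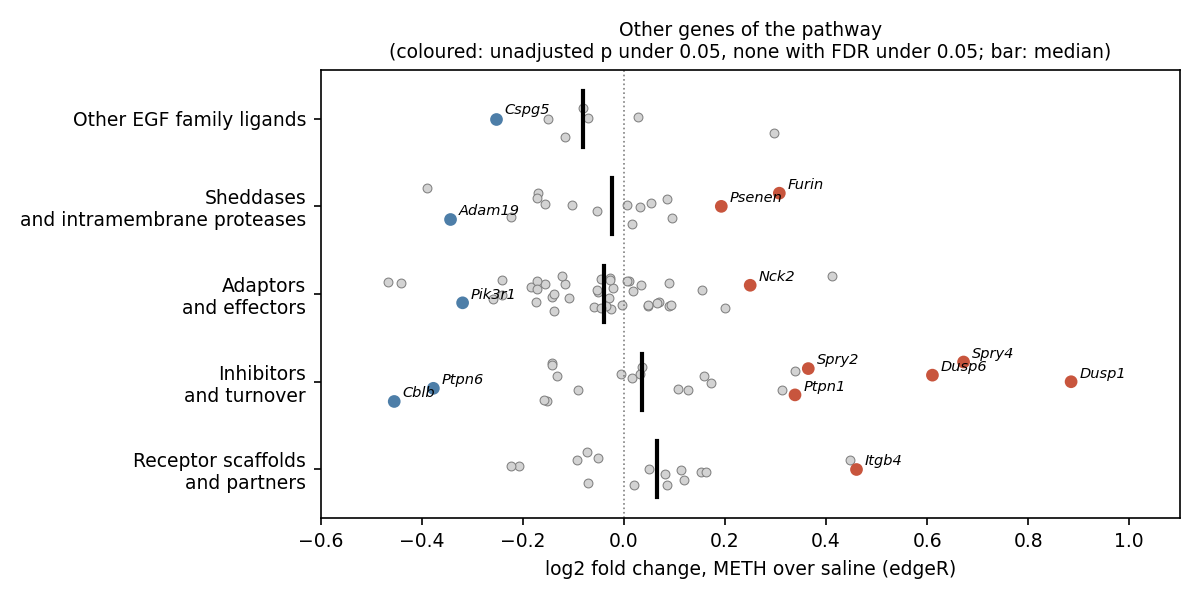
Log2 fold change of METH over saline for the 106 tested genes of the pathway lists, 1 point per gene and 1 row per list, with a bar for the list's median. Coloured points are the 14 genes at an unadjusted p under 0.05. The list medians lie between -0.08 and 0.07, and the points farthest to the right are Dusp1, Spry4 and Dusp6.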

How the data were processed

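Striatal mRNA of 8 rats was sequenced in paired-end poly(A) libraries (TruSeq). Per the submitters' processing notes, the authors used Cutadapt 1.18, STAR 2.7.0e, featureCounts (Subread 1.6.4) and the rn6 genome, and they deposited raw counts per gene symbol with 1 column per rat. The annotation, strand setting and handling of multimapping reads are not given in the sources used here, so overlapping or near-identical genes are uncertain.

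The deposited counts were analysed in R 4.3.3 (edgeR 4.0.16, DESeq2 1.42.0, limma 3.58.1) and Python 3.11.15 (SciPy 1.17.1). Genes were filtered with filterByExpr (minimum count 10), scaled by TMM (factors 0.956 to 1.02) and compared by the edgeR quasi-likelihood F-test with Benjamini-Hochberg adjustment. A prior count of 2 went into log2 CPM. The standard error is the absolute log2 fold change divided by the square root of F. The methods name no test for the mRNA libraries. The FDR and log2 CPM thresholds follow those of the study's small RNA results, but without the fold threshold used there, and a fold change of at least 1.5 was an alternative. Exact intervals cover counting error only. P-values of the group comparison rest on the spread between 4 rats per group, which edgeR estimates with help from all genes. Permutation p-values rest on reordering the rats within each group.

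The members, the 5 pathway lists, the 10 marker lists and the tests were chosen with earlier results of these data known. Named genes are the members, the 2 genes of lowest p in each pathway list, the 3 genes most like each member among those with a mean log2 CPM above 1, and the gene farthest from 0 in each marker list. Ppp1r1b as a check of the tissue, Spry4, Dusp1, Ereg, Otx2, Fezf2, Nrgn and the genes in the closing observation were named after their values were seen. Endothelial Slco1a4 was matched to Slco1a2 through a RefSeq synonym. Levels between genes were not ordered or tested and shares were not divided by length, since no transcript lengths were used here. The marker relations cover the 6 members tested. The alternatives were other tests, scalings, filters and call thresholds, robust dispersion, each rat left out, and the rat number as a block. The fit was tried on simulated METH and saline counts of 12014 genes, in which 200 differed by 1 on the log2 scale. It called 163 of the 200, each in its true direction, and 4 genes that had not been altered. The simulated difference was larger than the fitted value of any tested member, so it gives no rate of calls at their size.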

Additional observations from a re-analysis of the deposited data

Results flagged for a closer look

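A sample was looked at again where its gap to the nearest rat of its group, as a share of the group's range in log2 CPM, was above the 95% critical value of Dixon's test for 4 samples, which chance passes in about 5% of groups. Among 14 groups of the 7 members with a row, 2 passed. Nrg1 was low in saline rat 1 (0.851), at 3.73 CPM from 68 reads beside 6.001 to 6.52 CPM in the other saline rats. Nrg4 was high in METH rat 4 (0.922), with 4 reads beside 1 read in each other METH rat, a difference of 3 reads. Among 20 groups of the marker list means, 2 passed. The choroid plexus mean was apart in saline rat 2 (0.887), and the cortical pyramidal neuron mean was apart in saline rat 1 (0.862), the rat in which Nrg1 was low. Whether these go together was not tested.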

How the results depend on the processing

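None of the 6 tested members changed sign over the 18 alternative fits. The number of genes called was 62, and became 191 with DESeq2, 170 with the likelihood ratio test and 37 to 70 with 1 rat left out (37 without saline rat 2). Erbb3 (-0.44) was the 1 member called under DESeq2 (-0.44, FDR 0.00253), the likelihood ratio test (-0.44, FDR 0.00562), upper-quartile scaling (-0.45, FDR 0.04996) and total-count scaling (-0.48, FDR 0.0365), and no member was called under any other alternative. Pathway genes called were 0, and became 3 with DESeq2, 4 with the likelihood ratio test and 0 to 1 with 1 rat left out (1 without saline rat 1). The cause of these changes was not tested.

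The group difference in share of reads was -0.33 percentage points for Erbb3 and ran from -3.83 to 1.97 with 1 rat left out. It turned positive without saline rat 1 (1.97), saline rat 2 (1.35), METH rat 1 (0.897) or METH rat 2 (1.34). For Erbb4 it was -1.498 and ran from -2.996 to 1.198, turning positive without saline rat 3. Nrg1 stayed positive (1.67 to 5.11). Total-count CPM left 0 marker relations with an adjusted p under 0.05, as with TMM.

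With the rat number as a replicate block, 37 genes were called and the FDR of Erbb3 was 0.261. Same-numbered rats are different animals, and the correlations of their deviations were -0.20 to 0.04, so that no likeness by number was seen. Whether same-numbered rats shared a batch was not tested.

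Depth limited Erbb2 (30 to 69 reads) and Nrg4 (0 to 13 reads) most, and for Erbb4 the spread between saline rats exceeded counting error. Leaving out saline rat 1 turned the marker gene Slc17a7 from -1.54 to 0.96, an alternative added after seeing the data.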

Other observations

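Adora2a, the gene whose level followed that of Erbb3 most closely across rats with group means removed, encodes an adenosine receptor known from striatal projection neurons. It had a Pearson r of 0.979 over 8 rats, and its METH to saline difference was -0.01 on the log2 scale (standard error 0.08, edgeR FDR 0.979). Values of 6 other projection neuron genes, picked after they were seen, were spread through the ranking of 10975 genes. Drd2 was at rank 7 (0.937), Gpr6 at rank 13 (0.919), Penk at rank 1115 (0.539) and Drd1 at rank 2955 (0.29). Pdyn was at rank 6969 (-0.14) and Tac1 at rank 9710 (-0.51). These are descriptions over rats that share library and depth.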
